A study of Mus musculus with 14 samples.

Results

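The 46 genes described here code for the core of the Wnt pathway: 17 Wnt ligands, 10 Frizzled receptors, 5 co-receptors (*Lrp5*, *Lrp6*, *Ror1*, *Ror2* and *Ryk*), 5 genes of the R-spondin branch (*Lgr4*, *Lgr5*, *Lgr6*, *Znrf3* and *Rnf43*), 5 nuclear effectors (*Lef1*, *Tcf7*, *Tcf7l1*, *Tcf7l2* and *Ctnnb1*) and 4 feedback targets (*Axin2*, *Nkd1*, *Nkd2* and *Notum*). They were chosen by name from the 24454 genes of a table of read counts, and all 46 were found in it. A filter on low counts was passed by 37 of them, among 15125 genes that entered the tests. The other 9 (*Wnt1*, *Wnt3*, *Wnt3a*, *Wnt7a*, *Wnt7b*, *Wnt9b*, *Wnt10a*, *Wnt10b* and *Rnf43*) are given by their reads.

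Wnt proteins are secreted, lipid-modified signals that bind Frizzled receptors. Together with LRP5 or LRP6 they stabilise β-catenin, which joins TCF/LEF proteins on DNA and turns on targets such as *Axin2*, whose product feeds back on the pathway. Other Wnts, WNT5A first among them, act with ROR and RYK receptors on cell polarity and movement. In the limb bud, ectodermal Wnts such as WNT3 and WNT7A act in outgrowth and dorsal identity, β-catenin signalling opposes cartilage formation, and WNT5A in the mesenchyme is needed for the limb to elongate.

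RNA was sequenced from mesenchymal cells sorted from mouse forelimb buds whose *Sox9* locus carries an IRES-EGFP reporter, so that S9+ and S9- mean cells with and without EGFP. Dead cells (7AAD+) and cells with CD31, Ter119, CD45, EpCam, Gr1 or CD11b on their surface had been gated out of every population. At E10.5 these were S9-JAG1+ limb mesenchymal progenitors (LMPs, also SCA-1-), S9-Pαhi LMPs with high surface PDGFRα, and S9+Pαhi osteo-chondrogenic progenitors (OCPs) (3 libraries of each), and cells of the S9-SCA-1+ gate (2 libraries). S9+Pαhi *Col2a1*+ chondroblasts (3 libraries) came from E11.5, so that stage and population cannot be told apart for them. The reporter is the one allele named, and no treatment is given. Each library was made from pooled limb buds, and library totals lay between 20316583 and 29162751 counts. Levels are given as CPM, read counts relative to the scaled size of the library, in replicate order. A gene with at most 3 counts in a library (0.101 to 0.149 CPM, which covers counting error only) could be absent there. In such bulk samples, fewer cells with a transcript and less transcript per cell cannot be told apart.

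*Sox9* transcripts followed the EGFP gate, and values of *Pdgfra*, the gene of the Pαhi gate, are not given here. *Sox9* lay between 411 and 625 CPM in the 6 S9+ libraries and between 7.41 and 65.5 CPM in the 8 S9- libraries. *Col2a1* was at 1274 to 1886 CPM in chondroblasts and 695 to 1228 CPM in OCPs. *Jag1* was at 228 to 364 CPM in S9-JAG1+ LMPs, but also at 102 to 137 CPM in chondroblasts. In S9-SCA-1+ cells *Ly6a*, which codes for SCA-1, was at 3.10 to 3.36 CPM, and 7 myogenic genes such as *Pax3*, *Lbx1* and *Met* summed to 1501 and 1504 CPM, against at most 11.4 CPM in any other library. The values of this gate are thus those of a cell mixture rich in myogenic transcripts. The defining epithelial genes *Cdh1*, *Krt5*, *Krt14* and *Krt15* stayed at or below 0.982 CPM in every library, but *Epcam* was at 5.73 to 5.99 CPM in chondroblasts and 1.40 to 3.65 CPM elsewhere. The whole list of 14 ectoderm genes summed to 24.7 to 30.01 CPM in chondroblasts and 7.71 to 17.1 CPM elsewhere, and its part in the chondroblast values was not tested. In addition, 5 libraries stood out for transcripts known from other cells or regions: S9-JAG1+ replicate 3 (posterior axial mesoderm genes, 47.9 CPM in sum), S9-Pαhi replicate 3, OCP replicate 1 and S9-JAG1+ replicate 1 (the hindlimb gene *Pitx1*, 38.2, 29.4 and 23.6 CPM) and S9-SCA-1+ replicate 3 (blood genes, 1882 CPM). The posterior axial mesoderm list also summed to 12.8 and 18.5 CPM in S9-JAG1+ replicates 1 and 2, against at most 5.53 CPM in the other populations. It is thus not confined to replicate 3. The list includes *T*, which the study reports as increased in S9-JAG1+ LMPs. The whole hindlimb list summed to 71.69, 86.16 and 49.37 CPM in the libraries named for *Pitx1*. It also reached 45.98 and 44.31 CPM in OCP replicates 2 and 3, so it does not set S9-JAG1+ replicate 1 clearly apart from these. The other S9-JAG1+ libraries had 19.36 and 24.30 CPM. As choices made after these values had been seen, 4 of the 5 libraries (all but S9-JAG1+ replicate 1) and all 5 were left out together. The latter leaves 1 S9-JAG1+ and 1 S9-SCA-1+ library, whose spread is taken from the other populations.

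Most members that could be tested differed between populations. In a joint test over the 5 populations, 25 of 37 members were called, against 29.2% of all genes tested. A call needed an adjusted p of at most 0.1 in the quasi-likelihood test of edgeR and a difference of at least 1.2 (log2) between the highest and the lowest population. The median of that difference was 1.89 for the members and 0.75 for all genes. Called were 8 of 9 tested ligands, 6 of 10 Frizzleds, 1 of 5 co-receptors, 3 of 4 tested genes of the R-spondin branch, 3 of 5 nuclear effectors and all 4 feedback targets. Of the other 12 members, 11 passed the limit for p with smaller differences, and *Ctnnb1* did not (adjusted p = 0.834). When 4 of the libraries named above were left out, all 25 were called again, and all but *Fzd6* when all 5 were.

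Each population was then set against the mean of the other 4, in comparisons that share their libraries (edgeR, the same limits; errors of log2 fold changes are SE throughout). In S9-JAG1+ LMPs 4 members were called higher and 9 lower (all genes: 2.88% higher, 7.70% lower). In S9-Pαhi LMPs 2 were higher and 4 lower (all genes: 1.53% and 2.31%), and in OCPs also 2 higher and 4 lower (3.37% and 1.64%). Chondroblasts had 9 members higher and 5 lower (11.0% and 1.71%), and S9-SCA-1+ cells 6 higher and 5 lower (4.46% and 6.80%). The median log2 difference of the members was -0.32 in S9-JAG1+ LMPs, -0.05 in S9-Pαhi LMPs, -0.10 in OCPs, 0.25 in chondroblasts and -0.01 in S9-SCA-1+ cells. Over all tested genes the same medians were -0.01, -0.01, 0.02, 0.05 and -0.01.

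**Figure D1:**
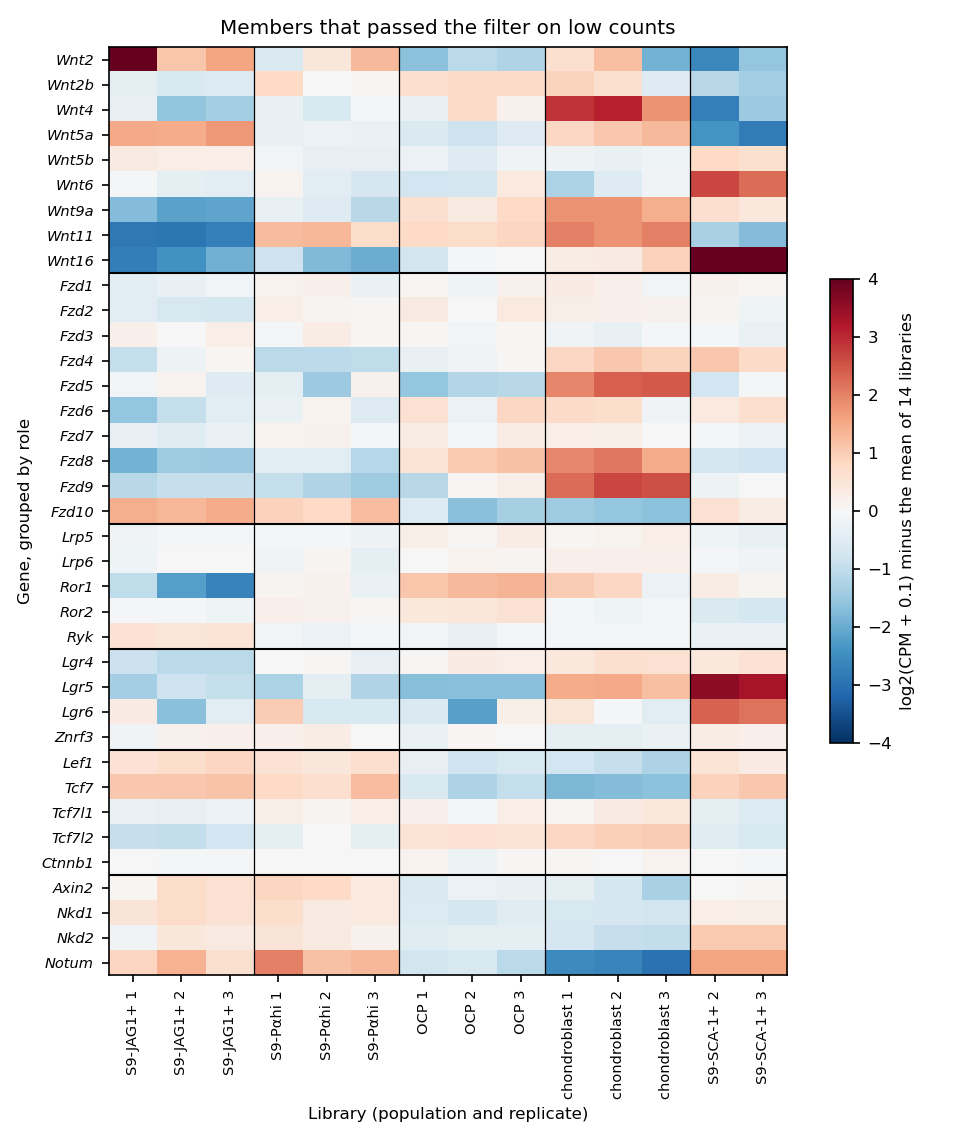
Levels of the 37 tested members in the 14 libraries, as log2(CPM + 0.1) minus the mean of each gene, with genes in rows by role and libraries in columns; colours end at 4 in either direction. *Wnt16*, *Lgr5* and *Lgr6* were above their mean in both S9-SCA-1+ libraries, *Fzd5*, *Fzd8* and *Fzd9* in the chondroblast libraries, and *Tcf7* and *Notum* in the 8 S9- libraries.

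Among the ligands, *Wnt5a* (chr14:28504543-28527448 in GRCm38, RefSeq) had the highest level per kilobase in every population but S9-SCA-1+ cells. It was read at 573, 550 and 660 CPM in S9-JAG1+ LMPs and at 352, 422 and 490 CPM in chondroblasts. Levels were lower in S9-Pαhi LMPs (162, 167 and 164 CPM) and OCPs (132, 112 and 139 CPM), and lowest in S9-SCA-1+ cells (38.1 and 28.3 CPM). No 2 of the 5 populations overlapped, in an order that runs from S9-JAG1+ LMPs over chondroblasts, S9-Pαhi LMPs and OCPs to S9-SCA-1+ cells. Against the mean of the others *Wnt5a* was higher in S9-JAG1+ LMPs (log2 fold change 2.18 ± 0.09, adjusted p = 5.38e-10) and lower in S9-SCA-1+ cells (log2 fold change -3.02 ± 0.16, adjusted p = 2.80e-09). The mean of S9-JAG1+ LMPs was 1.41 times that of chondroblasts, a pair that was not tested. In the pairs tested, S9-JAG1+ exceeded S9-Pαhi LMPs by 1.85 ± 0.13 and chondroblasts exceeded OCPs by 1.72 ± 0.13 on the log2 scale (adjusted p = 3.68e-07 and 1.67e-06), whereas OCPs and S9-Pαhi LMPs differed by -0.36 ± 0.13, under the fold limit. The call in chondroblasts against the mean of the others (1.56 ± 0.10) was lost when S9-SCA-1+ cells were left out (log2 fold change 0.85).

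*Wnt11* (chr7:98835084-98854747), a ligand of the polarity branch, had a different order. Chondroblasts held 59.2, 51.0 and 59.2 CPM, S9-Pαhi LMPs 35.2, 36.7 and 24.5 CPM and OCPs 25.2, 24.6 and 26.4 CPM. S9-SCA-1+ cells followed with 5.91 and 4.31 CPM and S9-JAG1+ LMPs with 1.93, 1.89 and 2.10 CPM. S9-Pαhi LMPs and OCPs overlapped, and the other populations lay apart from each other and from them. Between both LMP populations *Wnt5a* and *Wnt11* went opposite ways: *Wnt11* was lower in S9-JAG1+ than in S9-Pαhi LMPs (log2 fold change -4.02 ± 0.18, adjusted p = 3.94e-09). *Wnt9a*, which is known from joint formation, was also low in S9-JAG1+ LMPs, with 0.461 to 0.642 CPM, and with 1.05 to 1.91 CPM in S9-Pαhi LMPs, 3.09 to 4.20 in OCPs and 6.64 to 8.55 in chondroblasts, and 3.24 to 3.81 in S9-SCA-1+ cells. It was called lower in S9-JAG1+ than in S9-Pαhi LMPs (-1.54 ± 0.28) and higher in OCPs than in S9-Pαhi LMPs (1.26 ± 0.23). The second of these calls was lost without S9-Pαhi replicate 3 or without OCP replicate 3.

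*Wnt16* (chr6:22288178-22298522), known from somites and joints, was high in S9-SCA-1+ cells, with 47.0 and 38.4 CPM there. Chondroblasts had 1.11, 1.13 and 1.77 CPM, OCPs 0.487, 0.856 and 0.868 CPM and S9-Pαhi LMPs 0.447, 0.188 and 0.149 CPM, and S9-JAG1+ LMPs were at or near the level of 3 counts (0.0428, 0.0838 and 0.159 CPM). The mean of S9-SCA-1+ cells was 32.0 times that of chondroblasts, the next population, and its difference from the mean of the others passed the test (log2 fold change 6.72 ± 0.19, adjusted p = 4.11e-12). Its call in OCPs against S9-Pαhi LMPs (log2 fold change 1.45 ± 0.41, adjusted p = 0.0346) was lost without S9-Pαhi replicate 2 or 3 or OCP replicate 3. *Wnt4*, known from joints and muscle, was higher in chondroblasts, with 4.84, 5.65 and 2.24 CPM, against 0.446, 1.05 and 0.651 CPM in OCPs, 0.126 to 0.548 CPM in the LMPs and 0 and 0.142 CPM in S9-SCA-1+ cells (log2 fold change 2.58 ± 0.47, adjusted p = 0.00135, chondroblasts against OCPs). *Wnt5b*, a close relative of *Wnt5a*, was not called; all 14 libraries lay between 26.0 and 65.0 CPM, with S9-SCA-1+ cells on top (65.0 and 59.0 CPM). *Wnt6* reached 1.43 and 1.03 CPM in S9-SCA-1+ cells but at most 6 reads in any other library, and *Wnt2b* stayed between 0.641 and 3.43 CPM.

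*Wnt2* was high in 1 library. S9-JAG1+ LMPs held 15.2, 1.68 and 2.34 CPM, and every other library was at or below 1.89 CPM. Replicate 1, the highest, also held 23.6 CPM of *Pitx1*, against 2.72 and 3.77 CPM in its fellow libraries; the part of such cells in the *Wnt2* value was not tested. With it *Wnt2* was called higher in S9-JAG1+ than in S9-Pαhi LMPs (log2 fold change 2.54 ± 0.83, adjusted p = 0.0420), and without it the log2 fold change was 0.87 and no call was made. The call was also lost with a replicate block (2.10), without S9-Pαhi replicate 1 (2.16) or 2 (2.48) and with all 5 libraries left out (1.17). Against the mean of the other 4 populations it was called with (3.94 ± 0.62) and without (2.27) that library. Its call as lower in S9-SCA-1+ cells (-3.37 ± 1.31) was lost without either of their libraries. The 63 reads of *Wnt3a*, a ligand of the tail bud among other sites, in S9-JAG1+ replicate 3 were nearly all of its reads (at most 3 in any other library), in the library with the highest sum of posterior axial mesoderm genes. Ligands best known from the limb ectoderm and other epithelia were close to absence: *Wnt1* had no read in any of the 14 libraries, *Wnt10b* at most 1 read and *Wnt3*, *Wnt7a* and *Wnt10a* at most 5, 3 and 3 reads in a library. *Wnt7b* and *Wnt9b* reached 16 and 15 reads. A transcript with no read at this depth could still be present at up to the 3 counts given above.

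**Figure D2:**
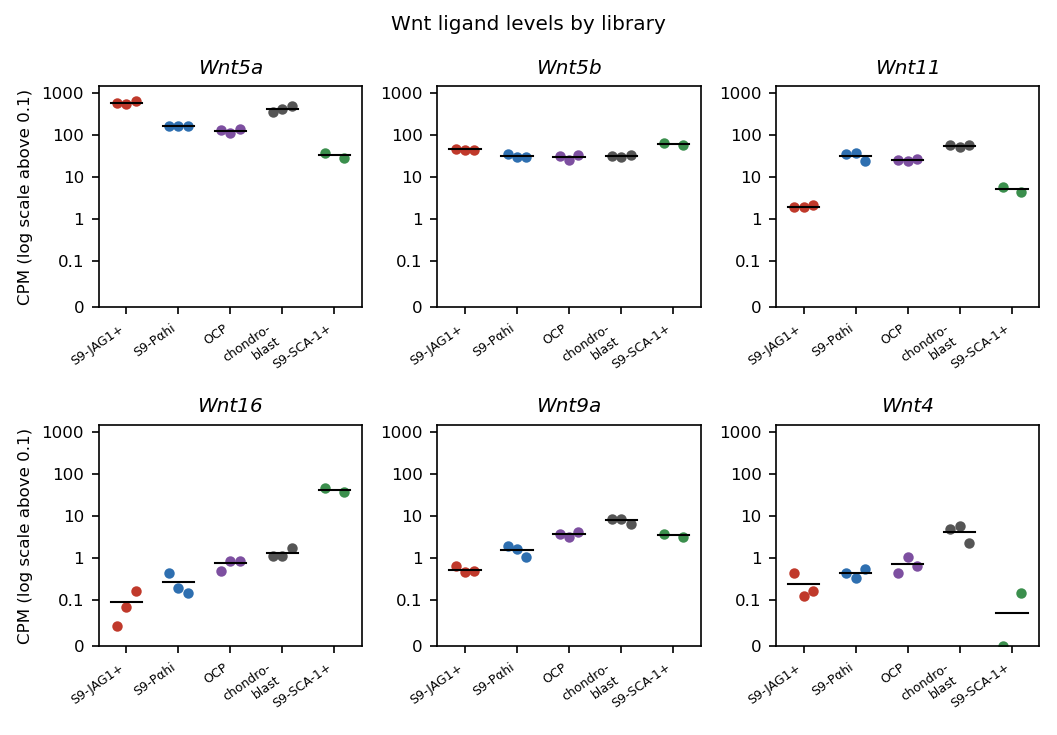
CPM of 6 Wnt ligands in each library (points) by population, with the mean as a line, on a log axis that is linear below 0.1 CPM. *Wnt5a* was highest in S9-JAG1+ LMPs and chondroblasts, *Wnt11*, *Wnt9a* and *Wnt4* in chondroblasts, and *Wnt16* in S9-SCA-1+ cells.

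To compare levels between genes, CPM were divided by the gene length of the table and the share of each ligand in the sum of all 17 was taken. *Wnt5a* held 86.0% ± 2.64 of the ligand sum in S9-JAG1+ LMPs (mean ± SD over libraries), 72.8% ± 3.88 in chondroblasts, 61.1% ± 2.89 in S9-Pαhi LMPs and 56.7% ± 0.821 in OCPs. In S9-SCA-1+ cells it held 12.5% ± 1.09, behind *Wnt16* with 42.5% ± 0.822 and *Wnt5b* with 38.9% ± 2.14. *Wnt11* made up 16.3% ± 2.75 in S9-Pαhi LMPs, 15.5% ± 1.06 in OCPs and 13.6% ± 1.97 in chondroblasts. The sum itself was 158 ± 13.2 CPM per kilobase in S9-JAG1+ LMPs and 132 ± 15.03 in chondroblasts, and between 51.5 and 61.6 in the other populations. These shares depend on the length used. With the longest RefSeq transcript of each gene, *Wnt5a* held 77.9%, 62.7%, 48.8% and 44.1% in the same 4 populations, and *Wnt5b* (43.7%) and *Wnt16* (42.6%) changed places in S9-SCA-1+ cells.

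**Figure D3:**
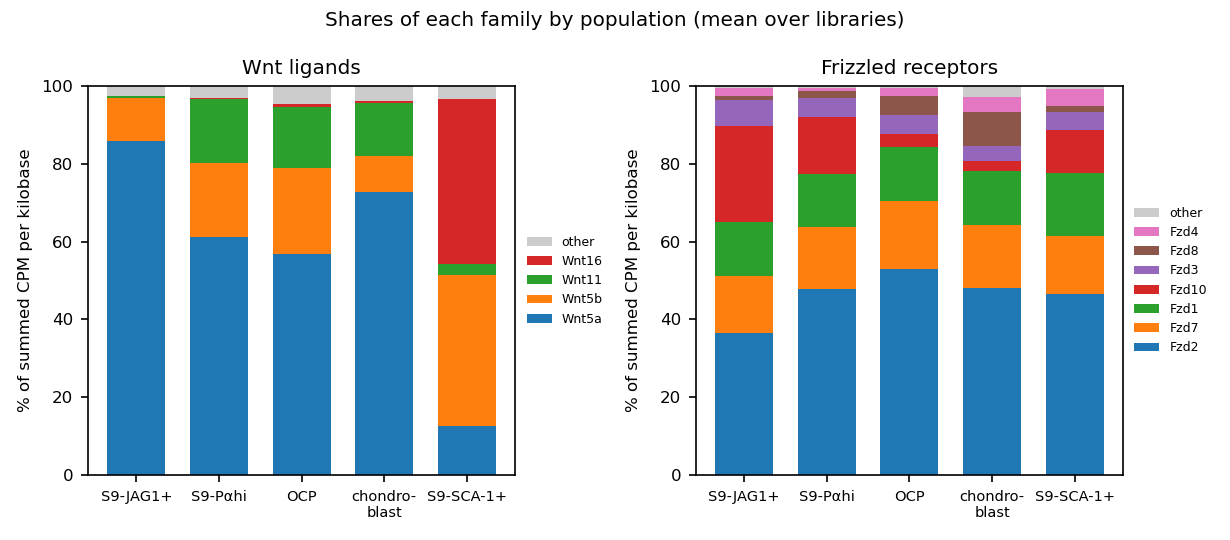
Stacked bars of the mean share of each Wnt ligand (left) and each Frizzled (right) in the summed CPM per kilobase of its family, by population, from 0 to 100%. *Wnt5a* makes up most of the ligand bar outside S9-SCA-1+ cells, and *Fzd2* the largest piece of each Frizzled bar.

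Some Frizzled genes were read at like levels throughout and others were not. *Fzd2*, the highest of the family per kilobase in all 5 populations, was read at 401 to 466 CPM in S9-Pαhi LMPs, 388 to 507 in OCPs, 438 to 458 in chondroblasts, 339 to 413 in S9-SCA-1+ cells and 237 to 288 in S9-JAG1+ LMPs. It held between 36.4% and 53.0% of the Frizzled sum. *Fzd1* (107 to 177 CPM), *Fzd3* (120 to 180 CPM) and *Fzd7* (126 to 218 CPM) were called in no comparison and varied by at most 1.46-fold between the highest and the lowest mean. *Fzd6* was low, at 0.514 to 3.11 CPM.

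No S9- library overlapped with an S9+ library in *Fzd10* or *Fzd8*. Of all genes, 4.51% were higher in S9- cells without overlap and 6.40% in S9+ cells. *Fzd10* (chr5:128601106-128604093) was high in S9- cells. In S9-JAG1+ LMPs it was at 147, 135 and 151 CPM, in S9-Pαhi LMPs at 103, 93.6 and 126 CPM and in S9-SCA-1+ cells at 82.6 and 65.5 CPM. OCPs had 36.5, 16.8 and 21.5 CPM and chondroblasts 20.1, 18.1 and 17.0 CPM. *Fzd8* ran the other way. S9-JAG1+ LMPs had it at 5.52, 7.59 and 7.37 CPM, in S9-Pαhi LMPs at 15.05, 15.01 and 9.37 CPM and in S9-SCA-1+ cells at 12.9 and 11.9 CPM. OCPs had 29.98, 42.4 and 46.1 CPM and chondroblasts 79.0, 88.9 and 57.3 CPM. OCPs and S9-Pαhi LMPs, which share a stage, differed in *Fzd10* (log2 fold change -2.10 ± 0.22, adjusted p = 2.69e-05) and in *Fzd8* (log2 fold change 1.58 ± 0.21, adjusted p = 2.31e-04). The share of *Fzd10* in the Frizzled sum went from 24.7% ± 0.597 in S9-JAG1+ LMPs and 14.7% ± 3.00 in S9-Pαhi LMPs to 3.42% ± 1.182 in OCPs.

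*Fzd5* and *Fzd9* were high in chondroblasts at E11.5. *Fzd5* was at 14.4, 19.4 and 20.5 CPM there, against 1.176 to 1.63 CPM in OCPs and 1.28 to 4.08 CPM in the S9- libraries (log2 fold change 3.63 ± 0.35, adjusted p = 7.42e-06, chondroblasts against OCPs). *Fzd9* held 7.43, 10.1 and 9.58 CPM, with 0.649, 1.57 and 1.77 CPM in OCPs and at most 1.53 CPM in S9- libraries (log2 fold change 2.76 ± 0.28, adjusted p = 1.33e-05). *Fzd4*, a receptor known from blood vessels, was at its highest in chondroblasts (32.6 to 38.8 CPM) and S9-SCA-1+ cells (31.2 to 39.1 CPM), which overlapped, and was at 8.66 to 19.3 CPM elsewhere. In chondroblasts, endothelial genes summed to 29.8 to 55.1 CPM, against 8.59 to 23.8 CPM in the other libraries; their part in the *Fzd4* value was not tested.

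Of the co-receptors, *Ror1* was called. S9-JAG1+ LMPs held 17.7, 7.67 and 5.55 CPM, S9-Pαhi LMPs 38.9, 40.6 and 29.6 CPM, OCPs 77.8, 88.8 and 92.6 CPM, chondroblasts 72.8, 63.0 and 30.4 CPM and S9-SCA-1+ cells 44.3 and 38.4 CPM. S9-JAG1+ LMPs lay below and OCPs above all others. Its relative *Ror2* varied less, from 92.9 ± 6.60 CPM in S9-SCA-1+ cells to 205 ± 13.5 CPM in OCPs (mean ± SD). *Ror1* was lower in S9-JAG1+ than in S9-Pαhi LMPs (log2 fold change -1.82 ± 0.36, adjusted p = 0.00226). It was higher in OCPs than in S9-Pαhi LMPs (log2 fold change 1.24 ± 0.34, adjusted p = 0.0282), a call lost without S9-Pαhi replicate 3 (log2 fold change 1.12) or OCP replicate 3 (1.16). *Ryk*, the highest of the group per kilobase, stood at 240, 227 and 235 CPM in S9-JAG1+ LMPs and at 129 to 158 CPM elsewhere without overlap, with a log2 fold change of 0.69 ± 0.06 that is under the limit. The population with the most *Wnt5a* had the most *Ryk* and the least *Ror1*. This did not extend to chondroblasts, second in *Wnt5a*. Their mean *Ryk* (155 CPM) lay in the range of the rest, and their mean *Ror1* (55.4 CPM) was second only to OCPs. *Lrp5* (140 to 212 CPM) and *Lrp6* (201 to 305 CPM), which serve the β-catenin branch, were read in every population.

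*Lgr5* (chr10:115450314-115587780), an R-spondin receptor and target of the pathway in other tissues, held 45.5 and 37.1 CPM in S9-SCA-1+ cells, ahead of chondroblasts with 10.6, 10.7 and 8.72 CPM. The other 9 libraries held 1.05 to 2.78 CPM. The mean of S9-SCA-1+ cells was 4.13 times that of chondroblasts (log2 fold change 4.06 ± 0.14, adjusted p = 4.91e-11, against the mean of the others), and chondroblasts exceeded OCPs (log2 fold change 3.21 ± 0.23, adjusted p = 9.43e-07). Calls of *Lgr5* as lower in S9-JAG1+ and in S9-Pαhi LMPs were lost when S9-SCA-1+ cells were left out (-0.64 and -0.44). *Lgr6* was low, with 2.24 and 1.92 CPM in the S9-SCA-1+ libraries and no more than 0.813 CPM elsewhere. *Lgr4*, of the 3 receptors the highest per kilobase in every population, was lowest in S9-JAG1+ LMPs (39.7, 33.9 and 34.4 CPM; log2 fold change -1.30 ± 0.10, adjusted p = 1.75e-07) and lay between 57.7 and 112 CPM in the others. *Znrf3*, a ubiquitin ligase that removes Frizzleds, was read at 23.0 to 37.7 CPM, whereas its relative *Rnf43* had at most 13 reads in a library.

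**Figure D4:**
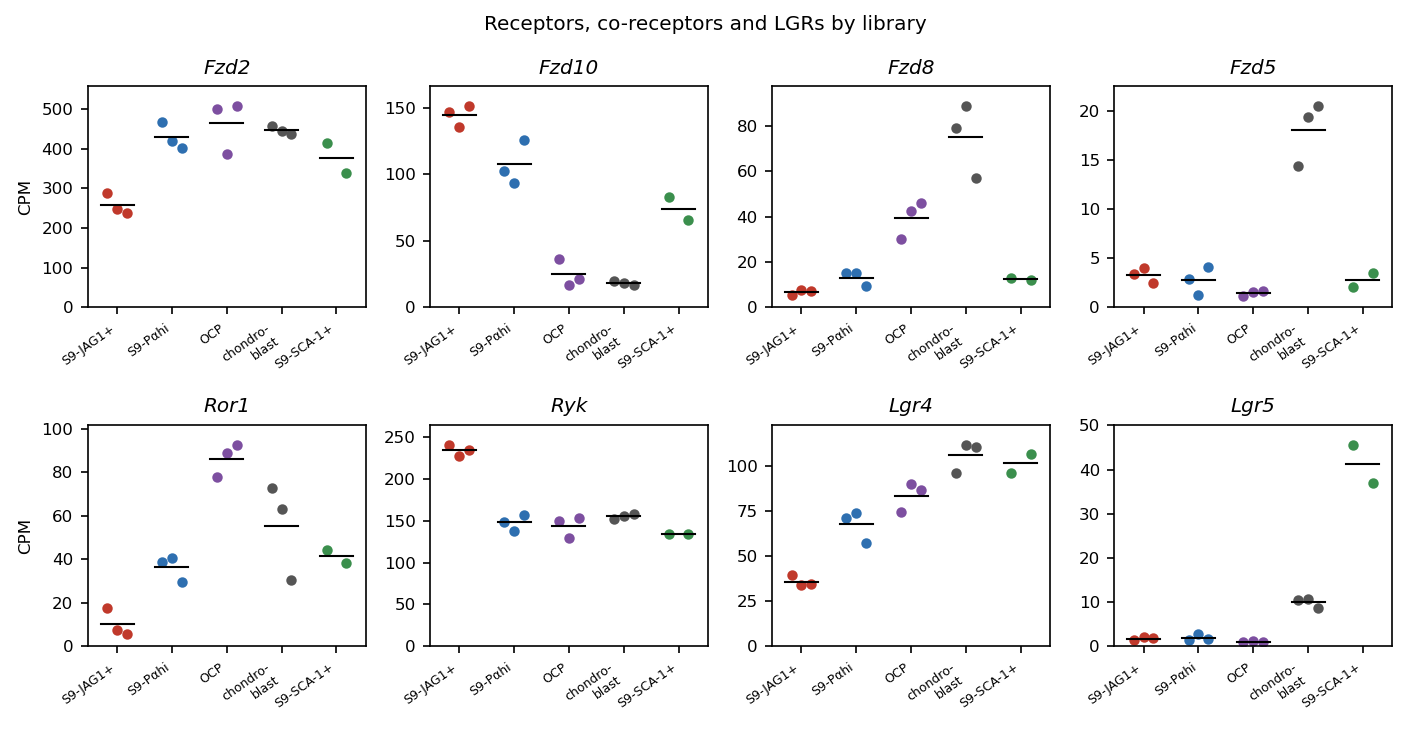
CPM of 8 receptor and co-receptor genes in each library (points) by population, with the mean as a line; each panel starts at 0 and has its own scale. *Fzd10* was high in S9- and *Fzd8* in S9+ populations, *Fzd5* in chondroblasts, *Ryk* in S9-JAG1+ LMPs and *Lgr5* in S9-SCA-1+ cells.

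The nuclear effectors did not move together. *Ctnnb1*, the gene of β-catenin and the highest member of all per kilobase, was at 1494 ± 41.6 CPM in S9-JAG1+ LMPs, 1509 ± 12.3 in S9-Pαhi LMPs, 1513 ± 185 in OCPs, 1583 ± 83.3 in chondroblasts and 1476 ± 27.5 in S9-SCA-1+ cells. The fitted difference between S9- and S9+ populations was -0.05 ± 0.06 (log2). *Lef1* and *Tcf7* were high in S9- cells. Of *Lef1* (chr3:131110297-131224357), a TCF/LEF factor that activates targets with β-catenin, S9-JAG1+ LMPs held 109, 119 and 133 CPM, S9-Pαhi LMPs 109, 100 and 116 CPM and S9-SCA-1+ cells 106 and 92.9 CPM. Its level was 58.9, 42.3 and 46.8 CPM in OCPs and 42.8, 38.7 and 31.3 CPM in chondroblasts. *Tcf7* (chr11:52246527-52283383), which codes for TCF1, had a wider step. In S9-JAG1+ LMPs it was at 92.0, 92.8 and 96.3 CPM, in S9-Pαhi LMPs at 76.6, 69.7 and 103 CPM and in S9-SCA-1+ cells at 83.0 and 93.2 CPM. OCPs had 28.7, 18.5 and 22.6 CPM and chondroblasts 12.4, 13.0 and 14.1 CPM. *Tcf7l2*, which codes for TCF4, went the other way. S9-JAG1+ LMPs had it at 39.1, 38.0 and 43.9 CPM, in S9-Pαhi LMPs at 57.1, 74.0 and 58.4 CPM and in S9-SCA-1+ cells at 53.7 and 49.4 CPM. OCPs had 109, 115 and 108 CPM and chondroblasts 133, 145 and 153 CPM. In none of these 3 genes did an S9- library overlap with an S9+ library (all genes: 4.51% higher in S9- and 6.40% in S9+ cells). *Tcf7l1*, mostly a repressor, differed by at most 1.69-fold between means. Its level was 99.3 to 193 CPM.

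All 4 feedback targets were higher in every S9- library than in any S9+ library (all genes: 4.51%). *Axin2* (chr11:108917828-108950783) codes for a scaffold of the complex that destroys β-catenin. In S9-JAG1+ LMPs it was read at 93.4, 145 and 134 CPM, in S9-Pαhi LMPs at 160, 152 and 116 CPM and in S9-SCA-1+ cells at 86.6 and 90.5 CPM. OCPs had 58.8, 74.8 and 71.1 CPM and chondroblasts 66.3, 53.2 and 35.4 CPM. *Nkd1*, an inhibitor that binds Dishevelled, spanned 89.4 to 125 CPM in S9- and 45.5 to 54.2 CPM in S9+ libraries. Its relative *Nkd2* was highest in S9-SCA-1+ cells. S9-JAG1+ LMPs had it at 68.8, 104 and 96.8 CPM, in S9-Pαhi LMPs at 109, 96.8 and 85.6 CPM and in S9-SCA-1+ cells at 156 and 156 CPM. OCPs had 53.7, 58.5 and 59.3 CPM and chondroblasts 47.3, 40.3 and 38.4 CPM. *Notum* (chr11:120653788-120661193), the gene of an enzyme that removes the lipid of Wnt proteins, had the widest range of the 4. It was read in S9-JAG1+ LMPs at 9.85, 14.4 and 8.56 CPM, in S9-Pαhi LMPs at 22.2, 12.4 and 13.8 CPM and in S9-SCA-1+ cells at 16.4 and 16.2 CPM. OCPs had 3.20, 3.47 and 2.50 CPM and chondroblasts 0.841, 0.787 and 0.589 CPM. Of the exon bases of *Notum*, 38.1% are also covered by genes on the other strand, as are 17.8% of *Fzd5*, 14.6% of *Ctnnb1* and 13.7% of *Lef1*. No source says if reads were counted by strand, so reads of such partners cannot be told apart from theirs.

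**Figure D5:**
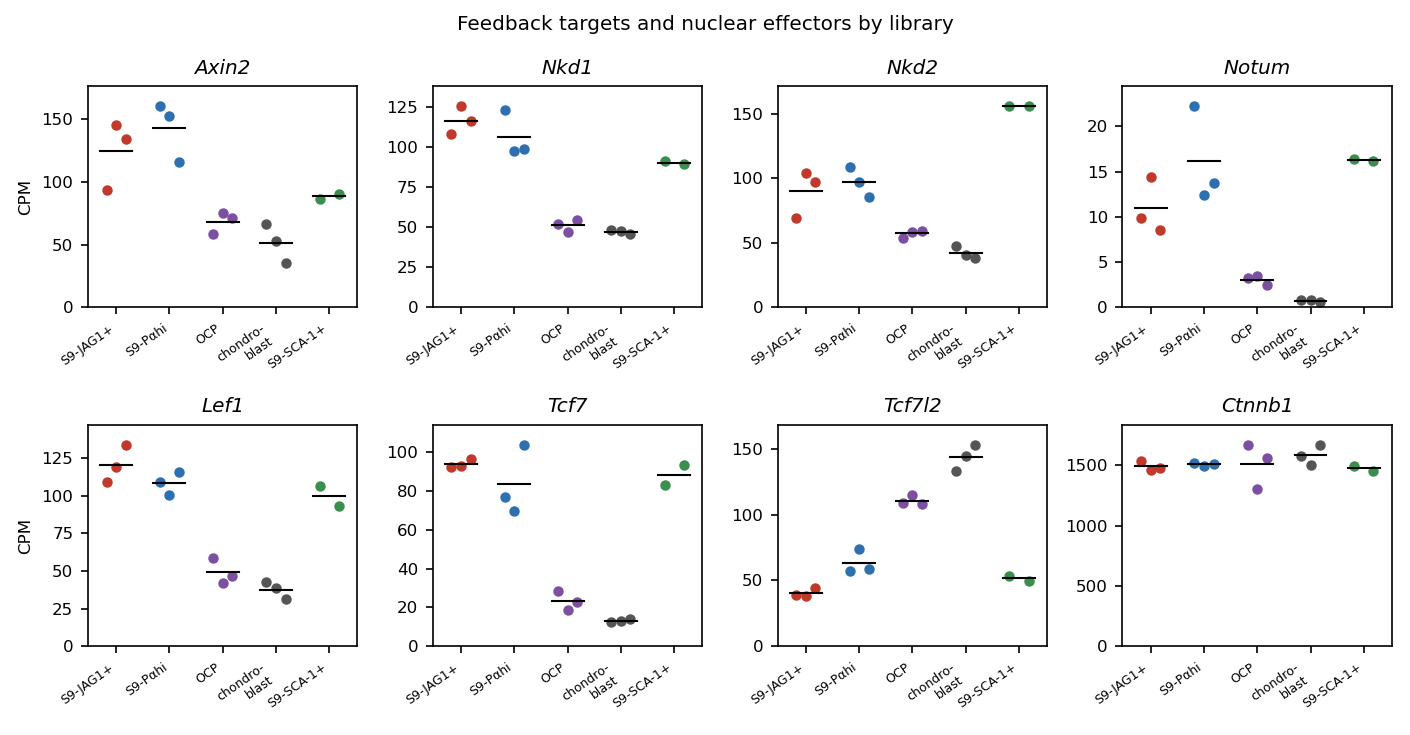
CPM of the 4 feedback targets and of 4 nuclear effectors in each library (points) by population, with the mean as a line; each panel starts at 0 and has its own scale. The 8 S9- libraries lie above the 6 S9+ libraries in *Axin2*, *Nkd1*, *Nkd2*, *Notum*, *Lef1* and *Tcf7*, and below them in *Tcf7l2*, while *Ctnnb1* shows no such step.

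The RefSeq promoters of the members (GRCm38.p6) were searched for the core of the TCF/LEF site, CTTTGA or its reverse complement TCAAAG, in the 250 bases before each start. Promoters of 34 members were counted, 44 in all, and 5 of the 44 (11.4%) had a match, against 13.8% of all 32851 promoters. Those of the other members, *Fzd8* among them, were not counted. The share for all promoters rests on every promoter of the table, so both shares need not follow the same selection. With 5 matches among 44 promoters, the share of the members also depends on which promoters were counted. No difference between both shares is therefore concluded. The 7-letter form CTTTGAT, which contains the core, was present in 2 of the 44 and in 3.21% of all. The promoters of *Axin2* and *Nkd2* are shown as genes that were high in S9- cells, without a match in this window. The start used for *Axin2* lies inside the gene span given above, so the bases before its most upstream start were not searched. The most downstream start of *Lef1* is shown for its 2 matches. For *Wnt11*, which was low in S9-JAG1+ LMPs, the upstream start is shown for its match to the longer form. All read 5′ to 3′ on the strand of the gene and end at the base before the start, and capitals mark the core. A match is a description of these letters and not evidence of binding.
Axin2 (chr11:108920099-108920348, plus strand): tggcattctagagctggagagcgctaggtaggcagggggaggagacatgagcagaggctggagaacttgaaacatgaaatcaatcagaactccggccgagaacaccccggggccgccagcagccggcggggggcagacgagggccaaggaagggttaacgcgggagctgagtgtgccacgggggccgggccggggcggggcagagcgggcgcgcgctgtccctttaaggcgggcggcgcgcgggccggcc
Nkd2 (chr13:73847632-73847881, minus strand): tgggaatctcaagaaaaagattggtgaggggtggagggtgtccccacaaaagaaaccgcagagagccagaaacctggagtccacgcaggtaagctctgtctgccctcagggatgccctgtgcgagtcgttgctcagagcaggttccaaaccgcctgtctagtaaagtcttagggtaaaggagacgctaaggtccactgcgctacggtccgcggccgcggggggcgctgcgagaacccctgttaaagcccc
Lef1 (chr3:131156044-131156293, plus strand): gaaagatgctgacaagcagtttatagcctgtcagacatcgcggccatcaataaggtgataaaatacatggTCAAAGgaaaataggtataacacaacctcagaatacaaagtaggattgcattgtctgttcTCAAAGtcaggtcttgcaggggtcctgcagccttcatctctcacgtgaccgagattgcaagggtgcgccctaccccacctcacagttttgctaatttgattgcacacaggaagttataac
Wnt11 (chr7:98834862-98835111, plus strand): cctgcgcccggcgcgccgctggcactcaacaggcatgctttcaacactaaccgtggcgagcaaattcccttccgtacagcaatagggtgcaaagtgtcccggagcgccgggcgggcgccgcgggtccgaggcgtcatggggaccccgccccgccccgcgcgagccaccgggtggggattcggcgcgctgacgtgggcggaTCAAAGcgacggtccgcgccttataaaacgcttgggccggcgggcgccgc

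S9- and S9+ cells were then compared by the mean of the 3 S9- populations against that of both S9+ populations, a comparison added after the values had been seen (log2 differences ± SE). Higher in S9- cells were 5 members (all genes: 1.62%), namely *Notum* (3.24 ± 0.19), *Tcf7* (2.33 ± 0.11), *Fzd10* (2.29 ± 0.15), *Wnt6* (1.46 ± 0.53) and *Lef1* (1.34 ± 0.09). Lower were 7 (all genes: 9.00%), namely *Wnt4* (-3.12 ± 0.40), *Wnt11* (-2.46 ± 0.10), *Fzd8* (-2.39 ± 0.14), *Fzd9* (-2.02 ± 0.20), *Wnt9a* (-1.93 ± 0.15), *Ror1* (-1.47 ± 0.23) and *Tcf7l2* (-1.31 ± 0.07). Of these 7, all but *Fzd8* and *Tcf7l2* had S9- libraries that overlapped with S9+ libraries. *Wnt11* was not lower in S9-Pαhi LMPs (24.5 to 36.7 CPM) than in OCPs (24.6 to 26.4 CPM). S9-SCA-1+ cells lay in the range of OCPs in *Wnt9a* (3.24 and 3.81 CPM, against 3.09 to 4.20) and in *Fzd9* (1.29 and 1.53 CPM, against 0.649 to 1.77). *Axin2* (0.97 ± 0.14), *Nkd1* (1.08 ± 0.07) and *Nkd2* (1.176 ± 0.09) passed the limit for p (adjusted p = 4.33e-05, 1.52e-08 and 1.70e-07) but not the fold limit. Fitted values of *Wnt4* and *Wnt6* rest on libraries near 3 counts and depend on the counts added by the fit, and *Wnt6* was above 6 reads in the 2 S9-SCA-1+ libraries alone. Without overlap between libraries, 7 tested members were higher in S9- cells (all genes: 4.51%) and 3 were higher in S9+ cells (6.40%), the latter being *Fzd8*, *Tcf7l2* and *Lrp5*. With OCPs alone as the S9+ side, so that all libraries came from E10.5, 4 members were called higher in S9- cells (all genes: 1.91%) and 6 lower (6.17%), and 8 of the 12 were among these 10. *Lef1* (1.14 ± 0.12), *Tcf7l2* (-1.12 ± 0.08), *Fzd9* (-0.64 ± 0.26) and *Wnt6* (1.06 ± 0.64) were then no longer called, and *Tcf7* (1.92 ± 0.14), *Notum* (2.22 ± 0.22) and *Fzd10* (2.07 ± 0.20) were. When 4 of the libraries that carried other transcripts were left out, all 12 were called, and all but *Wnt6* when all 5 were.

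Neighbouring populations were also compared in pairs, along the order in which the study arranged them. From S9-Pαhi to S9-JAG1+ LMPs, 2 members were higher (*Wnt5a* and *Wnt2*; all genes: 2.58%) and 3 lower (*Wnt11*, *Wnt9a* and *Ror1*; 4.42%). None of the 5 nuclear effectors and 4 feedback targets was called between both LMP populations (all genes: 7.00%). Among so few genes, no call is near the share of all genes. The differences of *Axin2* (-0.20 ± 0.20), *Lef1* (0.15 ± 0.13) and *Tcf7* (0.17 ± 0.15) did not pass the limit for p (adjusted p = 0.541, 0.463 and 0.470). *Tcf7l2* (-0.65 ± 0.10), *Tcf7l1* (-0.48 ± 0.10) and *Notum* (-0.56 ± 0.23) passed it under the fold limit, each lower in S9-JAG1+ LMPs (adjusted p = 4.21e-04, 0.00345 and 0.0937). With a replicate block the call of *Wnt2* was lost, and 4 members were called.

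OCPs differed from S9-Pαhi LMPs in 7 members. Higher were *Fzd8*, *Wnt16*, *Wnt9a* and *Ror1* (all genes: 3.48%). Lower were *Notum* (log2 fold change -2.41 ± 0.25, adjusted p = 2.69e-05), *Fzd10* and *Tcf7* (log2 fold change -1.84 ± 0.16, adjusted p = 5.68e-06), against 1.36% of all genes. *Lef1* (-1.13 ± 0.14), *Axin2* (-1.07 ± 0.21), *Nkd1* (-1.06 ± 0.10) and *Nkd2* (-0.76 ± 0.14) passed the limit for p, with adjusted p of 9.99e-05, 0.00392, 1.18e-05 and 0.00225, but not that for the fold change. The median log2 fold change of the 4 feedback targets was -1.06, beside 0.02 for all genes. The count of 7 rested in part on single libraries. Without S9-Pαhi replicate 3, or without OCP replicate 3, 4 members were called, *Fzd8*, *Fzd10*, *Tcf7* and *Notum* in both cases.

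Chondroblasts at E11.5 exceeded OCPs at E10.5 in 5 members (all genes: 6.60%). These were *Fzd5*, *Lgr5*, *Fzd9*, *Wnt4* and *Wnt5a*, described above. *Notum* was lower (log2 fold change -2.02 ± 0.31, adjusted p = 3.31e-04; all genes lower: 1.16%). *Wnt11* (1.15 ± 0.14), *Wnt9a* (1.098 ± 0.21), *Fzd4* (1.06 ± 0.19) and *Fzd8* (0.93 ± 0.20) passed the limit for p with differences under the fold limit, as did *Tcf7* (-0.82 ± 0.16) and *Lef1* (-0.39 ± 0.14) in the other direction. *Axin2* (-0.40 ± 0.21, adjusted p = 0.170) did not, and its chondroblast libraries ranged from 35.4 to 66.3 CPM. Stage and population cannot be told apart here.

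The remaining genes of the pathway were counted by list. Of 35 genes of Wnt secretion and the cytoplasm, 8 (22.9%) were called in the joint test, against 29.2% of all genes, with a median difference of 0.49 (all genes: 0.75). *Apc2*, a relative of the tumour suppressor *Apc*, was at 2.53 to 3.01 CPM in S9-JAG1+ LMPs and 34.99 to 41.8 CPM in chondroblasts, and the co-repressor *Tle2* was at 3.00 to 5.07 CPM in S9-JAG1+ LMPs and 17.8 to 53.0 CPM in OCPs. *Dact1*, which modulates Dishevelled, was at 26.8 to 32.6 CPM in S9-JAG1+ LMPs and at 72.1 to 219 CPM elsewhere (log2 fold change -2.11 ± 0.21, adjusted p = 2.22e-06). *Wls*, needed for the secretion of Wnts, was lower in S9-SCA-1+ cells (log2 fold change -1.62 ± 0.09, adjusted p = 4.62e-09).

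Of 19 genes of planar cell polarity and non-canonical signalling, 7 (36.8%) were called in the joint test, against 29.2% of all genes, with a median difference of 0.63 (all genes: 0.75). In S9-JAG1+ LMPs *Prickle1*, *Ankrd6* and *Daam2* were higher, and in S9-SCA-1+ cells *Prickle1*, *Prickle2*, *Daam2* and *Camk2d* were lower. *Daam2*, a formin that binds Dishevelled, was read at 263, 329 and 276 CPM in S9-JAG1+ LMPs, 130 to 148 CPM in S9-Pαhi LMPs, 71.1 to 102 CPM in S9+ cells and 37.0 and 34.4 CPM in S9-SCA-1+ cells. *Prickle1* held 76.5 to 112 CPM in S9-JAG1+ LMPs, 8.01 and 8.05 CPM in S9-SCA-1+ cells and 32.4 to 94.6 CPM in between. *Prickle2* was at 6.02 and 4.49 CPM in S9-SCA-1+ cells and 21.1 to 30.4 CPM elsewhere. *Wnt5a* was highest where *Daam2* was highest and lowest where *Daam2* was lowest, but chondroblasts, second in *Wnt5a*, had little more *Daam2* than OCPs (0.24 ± 0.11).

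Among 22 tested genes of a list of Wnt targets reported in other tissues, 19 were called in the joint test (all genes: 29.2%). Between S9- and S9+ populations 10 were higher in S9- cells (all genes: 1.62%) and 2 in S9+ cells (9.00%). Many of them also answer to other signals. *Sp5*, a transcription factor that acts with TCF/LEF proteins, was at 84.6 and 87.2 CPM in the S9-SCA-1+ libraries and no higher than 3.33 CPM elsewhere. *T*, a mesoderm factor, was at 5.35, 10.4 and 23.8 CPM in S9-JAG1+ LMPs, highest in the library with the other posterior axial mesoderm genes, and at most 0.476 CPM elsewhere. *Fst*, an inhibitor of activins and BMPs, was at 8.92 and 8.94 CPM in S9-SCA-1+ cells, 3.02 to 4.47 CPM in chondroblasts, 1.01 to 2.23 CPM in OCPs and 0.0428 to 0.366 CPM in the LMPs. OCPs had 5 genes of this list lower (all genes: 1.36%) and 1 higher (3.48%) than S9-Pαhi LMPs. Among the lower was *Dkk1*, a secreted inhibitor of LRP5 and LRP6, with 24.8, 26.8 and 23.8 CPM in S9-Pαhi LMPs and 1.095, 0.523 and 0.796 CPM in OCPs; it was singled out after its values had been seen.

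S9-SCA-1+ cells combined the lowest *Wnt5a* with the highest *Wnt16*, *Wnt5b*, *Lgr5*, *Nkd2* and *Sp5*. *Nkd2* lay at the fold limit there (log2 fold change 1.202 ± 0.12, adjusted p = 1.83e-06), and leaving out S9-JAG1+ replicate 1, S9-Pαhi replicate 3, OCP replicate 1, chondroblast replicate 2 or 3, or 4 or all 5 of the libraries named above took it below (1.12 to 1.198). Calls that rest on so narrow a margin were also those of *Fzd8* in OCPs (1.21 ± 0.16) and of *Tcf7l2* in chondroblasts (1.22 ± 0.08), each against the mean of the others. The first was lost without S9-JAG1+ replicate 1, S9-Pαhi replicate 3, OCP replicate 2 or 3, chondroblast replicate 3 or S9-SCA-1+ replicate 3 (1.07 to 1.198), and the second without S9-JAG1+ replicate 2, OCP replicate 2 or 3 or chondroblast replicate 2 or 3 (1.14 to 1.19). The part of the myogenic transcripts of this population in its Wnt values was not tested.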

How the data were processed

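Poly(A)+ RNA of 14 libraries of cells sorted from mouse forelimb buds was sequenced as single reads of 50 bases. According to the methods, the authors aligned reads to mm10 with STAR, kept 1 position for reads with several hits, and counted reads that start in RefSeq exons with QuasR. The deposited table holds these raw read counts for 24454 genes and a gene length, which was used for values per kilobase. Columns were matched to samples by name. Replicates are libraries of pooled limb buds, so p-values measure the spread between such libraries.

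Counts were filtered with filterByExpr by population, scaled by TMM and fitted with 1 mean per population in edgeR 4.0.16 (R 4.3.3). For the quasi-likelihood tests, the Benjamini-Hochberg adjustment covered all 15125 genes tested, and calls needed an adjusted p of at most 0.1 and a log2 difference of at least 1.2. The common biological coefficient of variation was 13.4%. SE were taken as the log2 fold change over the square root of F. The fits were tested on simulated counts. Alternatives were DESeq2 1.42.0 and its size factors, no filter, other limits, a replicate block, fewer populations, and each library left out in turn. In addition, 4 were made after the data had been seen: 4 or 5 libraries left out together, and both comparisons of S9- with S9+ cells.

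The members, gene lists and limits were chosen with earlier results of these data known. Values per library are given for up to 4 ligands and up to 3 members of each other role group, namely those called in the joint test with the widest range of population means, for the member with the highest level per kilobase in each group, and for *Ctnnb1* and *Axin2*. The remaining lists have up to 3 genes each by the same range. *Fzd4*, *Fzd10*, *Nkd1*, *Wnt5b*, *Wnt9a*, *Wls* and *Dkk1* were described in more detail after their values had been seen. Positions of genes are those of RefSeq (GRCm38), as are promoters (GRCm38.p6). Overlap with genes on the other strand and lengths of transcripts paired with RefSeq were taken from GENCODE M21.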

Additional observations from a re-analysis of the deposited data

How the results depend on the processing

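Of 254 recomputed counts and shares, 15 moved by over 1.5 times (counts) or over 1 SD (shares). Without the fold limit, 27 members instead of 13 were called in S9-JAG1+ LMPs, 18 instead of 6 in S9-Pαhi LMPs, 24 instead of 6 in OCPs, 30 instead of 14 in chondroblasts and 26 instead of 11 in S9-SCA-1+ cells, each against the mean of the others. In the pairs, 17 instead of 5 were called between the LMPs, 19 instead of 7 between OCPs and S9-Pαhi LMPs and 18 instead of 6 between chondroblasts and OCPs, and between S9- and S9+ cells 31 instead of 12. Of all genes, the shares called without the fold limit were 49.9%, 15.6%, 28.5%, 65.0% and 46.4% for the 5 populations in that order, 28.1%, 20.1% and 34.8% for the pairs and 66.5% between S9- and S9+ cells. With each library left out in turn, OCPs and S9-Pαhi LMPs differed in 4 to 9 members (4 without S9-Pαhi replicate 3 or OCP replicate 3, 9 without OCP replicate 1), and the joint test called 25 to 29. With the longest RefSeq transcript as length, the share of *Wnt5a* was 77.9% in S9-JAG1+ LMPs, 48.8% in S9-Pαhi LMPs, 44.1% in OCPs and 62.7% in chondroblasts. With a replicate block, 25 members were called in the joint test, 10 instead of 11 in S9-SCA-1+ cells (without *Nkd2*) and 4 instead of 5 between the LMPs (without *Wnt2*), and the other counts were as reported. The labels do not say that a replicate number marks a shared sample. Of 26 pairs of libraries with the same number, 4 had deviations correlated by over 0.1 (median -0.005), so the numbers were not treated as pairs. Pairs with different numbers had a median of -0.003. The highest correlation was that of S9-Pαhi replicate 3 with OCP replicate 1 (0.41). Both were also correlated with S9-JAG1+ replicate 1 (0.25 and 0.31), and each of these libraries carried the *Pitx1* transcripts given above. Whether they share a pool was not tested, and the tests treat them as independent. Fold changes were recomputed for 64 calls of the members chosen by rule for values per library. Calls of other members named above, such as *Wnt6*, *Wnt9a* and *Fzd10*, are not among these 64. Of 1350 recomputed fold changes, 50 were no longer called and 0 changed sign. Those lost with S9-SCA-1+ cells left out were *Lgr5* in both LMP populations, *Wnt11* and *Wnt16* in S9-Pαhi LMPs, *Wnt5a* and *Tcf7l2* in chondroblasts and *Fzd8* and *Tcf7* in OCPs. The cause was not tested. Depth limits what can be said of the 9 members that did not pass the filter and of *Wnt6*, which had few reads.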
